A study of Bos taurus with 3 samples.

Results

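Macroglia are the support cells of the retina, and 7 genes that mark them were followed here: CLU, GLUL, VIM, GFAP, APOE, GPR37 and AQP4. They were taken by symbol from a table of 13574 genes, and all 7 listed symbols were found. The table gives FPKM, fragments scaled to the kilobases of the gene and to the reads of the library. Levels of different genes were set side by side on this scale. Bias that it leaves between genes, by length or gene model, was not tested. The samples were 3 libraries of poly(A) RNA from bovine retina, called libraries 1, 2 and 3, which form 1 group. The labels describe the cattle as of mixed strain, place tissue collection between 7 and 10 in the morning, and state that RNA was pooled for each library. They name no treatment or genotype. They do not tell whether each library had its own animals, so SDs and p-values measure only the spread between these libraries. That spread may be technical in part, while reads of the gene XIST, given below, show that the mix of animals differed too.

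Müller glia are radial cells that span the retina from the vitreous surface to the photoreceptors. They take up glutamate and turn it into glutamine, move water and potassium out of the tissue, and supply neurons with lipid. Astrocytes lie among the ganglion cell axons and around the vessels of the inner retina, and share many of these genes. Filaments of GFAP and vimentin are known to build up in glia after injury. None of the 7 genes belongs to 1 cell type alone, and in RNA of whole retina fewer cells of a type and less RNA per cell cannot be told apart.

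The depth could be read from the table, because FPKM times gene length rose in steps of a single read. The read totals behind the scaling lay between 36656987 and 49102476. A gene of 1 kb reached 3 reads at 0.0818, 0.0769 and 0.0611 FPKM in libraries 1, 2 and 3, and such floors, like the intervals below, cover counting error only. Library 2 stood apart in XIST, which is transcribed from the inactive X chromosome. It had 3 reads of this RNA, against 3987 in library 1 and 3628 in library 3, so the libraries were not made from one and the same mix of animals. Values also moved with gene length. Over 2404 genes of at most 1392 bases the median deviation from the gene mean, on the scale of log2(FPKM + 1), was 0.17, 0.05 and -0.23 in libraries 1, 2 and 3. Over 2399 genes of at least 2961 bases it was -0.03, -0.05 and 0.08. All 14 photoreceptor markers, listed as a check of the tissue, were above 10 FPKM, led by PDE6G, GNAT1 and SAG at 5103, 4340 and 3452 FPKM on average.

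The macroglial genes were abundant, except for AQP4, which lay near the middle of the transcriptome. The median of the 7 genes was 208 FPKM, against 5.67 FPKM over all genes. All 7 reached 1 FPKM, 6 reached 10 FPKM and 5 reached 100 FPKM, while 70.7%, 38.4% and 3.81% of all genes reached those levels. Together they held 0.470%, 0.576% and 0.542% of the summed FPKM in libraries 1, 2 and 3. Their summed level was 1551, 1959 and 1620 FPKM, and that of the photoreceptor markers, 19932, 25306 and 21868 FPKM, was highest in the same library. So was the summed FPKM of all genes, at 329947, 339882 and 298958. Within the sum of the 7 genes CLU took 32.2% ± 7.22 and GLUL 25.9% ± 6.88 (SD, n = 3 for each). VIM took 18.8% ± 0.949, GFAP 12.3% ± 1.84, APOE 7.71% ± 1.19, GPR37 2.82% ± 0.287 and AQP4 0.351% ± 0.0642 (SD, n = 3 for each).

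**Figure D1:**
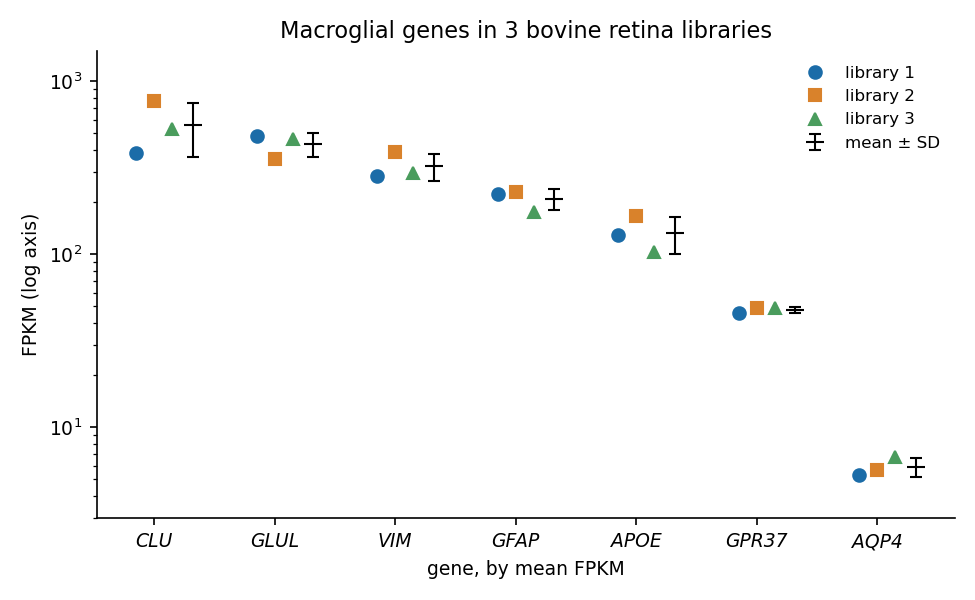
FPKM of the 7 genes on a log axis, with 1 point for each of the 3 libraries and the mean ± SD beside them; genes run by mean level. CLU lies between 383 and 767 FPKM and AQP4 between 5.33 and 6.77 FPKM, and the ranges of CLU, GLUL and VIM overlap.

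GLUL encodes glutamine synthetase, which joins ammonia to glutamate and is a classical enzyme of Müller glia. It had 481, 354 and 463 FPKM in libraries 1, 2 and 3, from 47382, 37123 and 61055 reads. Libraries 1 and 3 were close to each other and library 2 was low. The ratio of library 2 to library 1 was 0.736 (95% exact interval 0.726 to 0.746), and that of library 3 to library 2 was 1.31 (1.29 to 1.32). By mean level GLUL ranked 56 of 13574 genes.

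The other genes of glutamate and glutamine handling lay below GLUL. Of 16 listed genes 14 were measured, and 11 of them reached 10 FPKM, with a median of 29.9 FPKM over the 14. SLC38A3, a transporter that passes glutamine out of glia, had 279, 287 and 255 FPKM in libraries 1, 2 and 3. The aspartate aminotransferases GOT1 and GOT2, which exchange amino groups between glutamate and aspartate, averaged 229 FPKM ± 28.6 and 216 FPKM ± 38.0 (SD, n = 3 for each). SLC1A7, a glutamate transporter of photoreceptors and bipolar cells, averaged 76.0 FPKM ± 1.45 (SD, n = 3).

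SLC1A3, the main glutamate transporter of Müller glia, had 36.1, 26.8 and 40.8 FPKM in libraries 1, 2 and 3. It was lowest in library 2, as were GLUL and 32.1% of all genes that averaged 1 FPKM or more. Of the 13 measured genes of the list other than GLUL, 4 were lowest and 7 highest in library 2. The ratio of library 2 to library 1 was 0.743 (95% exact interval 0.713 to 0.774) for SLC1A3. Within each library GLUL stood 13.0-fold, 12.8-fold and 11.1-fold above SLC1A3 on the scale of FPKM + 1, a log2 ratio of 3.62 ± 0.12 (SD, n = 3). SLC1A2, the related transporter of astrocytes, was not analysed here.

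AQP4 encodes the water channel that sits in the endfeet of Müller glia and astrocytes at vessels and at the vitreous border. It had 5.33, 5.69 and 6.77 FPKM in libraries 1, 2 and 3, from 1114, 1265 and 1895 reads, far above the floor. With a mean of 5.93 FPKM ± 0.750 (SD, n = 3) it ranked 6665, so that 50.9% of genes had a lower mean. Library 3 was the highest, and its ratio to library 1 was 1.27 (95% exact interval 1.18 to 1.37). Libraries 2 and 1 did not differ beyond counting error, with a ratio of 1.07 (0.984 to 1.16). The gene model of AQP4 has 5697 bases and is the longest of the 7. With the trend of library values with gene length removed, the highest and lowest libraries lay 1.04-fold apart, against 1.23-fold before, both on the scale of FPKM + 1.

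The list of channels and anchoring proteins that holds AQP4 also had its median near the middle of the transcriptome. Its genes ran from 0 to 20.9 FPKM on average. Of 16 listed genes of water, potassium and the dystrophin complex 13 were measured, with a median of 4.38 FPKM against 5.67 FPKM over all genes. Of the 13, 10 reached 1 FPKM and 3 reached 10 FPKM, while 70.7% and 38.4% of all genes did. KCNJ10, the potassium channel that shares the endfeet with AQP4, had 10.2, 8.94 and 13.7 FPKM in libraries 1, 2 and 3. AQP4 lay below KCNJ10 in every library, with a log2 ratio of -0.77 ± 0.18 (SD, n = 3). DAG1, the dystroglycan that ties the complex to the basal lamina, averaged 20.9 FPKM ± 3.42 and DMD, the dystrophin that AQP4 and KCNJ10 are anchored through, 8.64 FPKM ± 2.01 (SD, n = 3 for each). The dystrobrevin DTNB averaged 12.5 FPKM ± 1.01 (SD, n = 3). The other aquaporins measured were chosen after their values were seen. AQP11 averaged 1.91 FPKM and AQP1 0.147 FPKM, and AQP9 was listed at 0 in each library.

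VIM and GFAP encode the intermediate filaments of macroglia, vimentin in Müller glia and also in vessel cells, GFAP chiefly in astrocytes of the undamaged retina. VIM had 283, 390 and 295 FPKM in libraries 1, 2 and 3, with library 2 high and the other libraries near each other. GFAP had 222, 228 and 175 FPKM, with library 3 low and libraries 1 and 2 near each other. For VIM the ratio of library 2 to library 1 was 1.37 (95% exact interval 1.35 to 1.40), and for GFAP it was 1.03 (1.01 to 1.05). VIM lay above GFAP in every library, 1.28-fold, 1.70-fold and 1.68-fold on the scale of FPKM + 1, a log2 ratio of 0.62 ± 0.24 (SD, n = 3). In the ARS-UCD2.0 assembly GFAP overlaps FAM187A, which was not analysed here, and whether counting used strand is not stated, so GFAP may hold reads of that gene.

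Among intermediate filaments the macroglial forms shared the top with neuronal ones. Of 18 listed genes 14 were measured, 5 reached 10 FPKM and 4 reached 100 FPKM. NEFL, the light neurofilament of ganglion cells, had 353, 449 and 465 FPKM in libraries 1, 2 and 3, and INA, the alpha internexin of neurons, averaged 153 FPKM ± 19.7 (SD, n = 3). LMNA, a lamin of the nuclear envelope, averaged 17.3 FPKM ± 2.19 (SD, n = 3). The other 9 genes measured were below 10 FPKM. Among them were the glial partners of vimentin, NES at 2.50 FPKM and SYNM at 3.51 FPKM on average, both chosen after their values were seen.

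GFAP and VIM are also on the list of genes known to rise in reactive glia. Of 22 listed genes 19 were measured, 11 reached 1 FPKM and 3 reached 100 FPKM, and the median was 1.10 FPKM. The other gene above 100 FPKM was HSPB1, a small heat shock protein, with 268, 355 and 220.4 FPKM in libraries 1, 2 and 3. CRYAB, a related chaperone, averaged 62.2 FPKM ± 16.7 and TIMP1, an inhibitor of matrix proteases, 19.98 FPKM ± 5.18 (SD, n = 3 for each). Chosen after their values were seen, SOCS3, a brake on cytokine signalling, averaged 0.445 FPKM and the secreted lectin CHI3L1 0.107 FPKM. With no injured retina among the samples, these are levels and not changes.

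CLU and APOE encode lipid carriers that glia secrete, clusterin and apolipoprotein E. CLU had 383, 767 and 528 FPKM in libraries 1, 2 and 3, and no value lay near another. The ratio of library 2 to library 1 was 2.00 (95% exact interval 1.97 to 2.03), and that of library 3 to library 1 was 1.38 (1.36 to 1.40). CLU had the highest mean of the 7 genes and ranked 76, 23 and 30 of all genes in libraries 1, 2 and 3. Its SD on the log2 scale, 0.50, exceeded that of 91.0% of the 100 genes with a mean between 0.5 and 2 times its own, a description made after the values were seen.

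APOE had 129, 166 and 103 FPKM in libraries 1, 2 and 3. Library 2 was high and library 3 low, with a ratio of library 3 to library 2 of 0.619 (95% exact interval 0.598 to 0.641). With 1154 bases APOE has the shortest model of the 7 genes. With the length trend removed, that ratio was 0.728, against 0.622 before, both on the scale of FPKM + 1. CLU lay above APOE in every library, 2.95-fold, 4.61-fold and 5.11-fold on the scale of FPKM + 1, a log2 ratio of 2.04 ± 0.42 (SD, n = 3).

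CLU and APOE stood at the head of the lipid genes. Of 18 listed carriers, receptors, exporters and regulators 15 were measured, 14 reached 1 FPKM and 10 reached 10 FPKM, with a median of 11.5 FPKM. VLDLR, a receptor for lipoproteins that carry apolipoprotein E, had 58.8, 69.0 and 76.5 FPKM in libraries 1, 2 and 3. NR1H2, the oxysterol receptor that drives cholesterol export genes, averaged 54.9 FPKM ± 5.66, and LCAT, which esterifies cholesterol on lipoproteins, 50.4 FPKM ± 7.45 (SD, n = 3 for each). The cholesterol exporter ABCA1, chosen after its values were seen, averaged 2.64 FPKM. LRP1, another receptor of apolipoprotein E, was not analysed here.

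GPR37 encodes a G protein-coupled receptor related to the endothelin receptors and is known from oligodendrocytes and other glia. It had 45.6, 48.8 and 48.9 FPKM in libraries 1, 2 and 3. As deposited, its SD of 0.06 on the log2 scale was the lowest of the 7 genes. Libraries 3 and 2 did not differ beyond counting error, with a ratio of 1.00 (95% exact interval 0.967 to 1.04). Of 2258 genes with a mean between 0.5 and 2 times its own, 4.56% had a smaller SD, a description made after the values were seen. This too holds as deposited. The SD of GPR37 was 0.125 with the libraries scaled to equal sums and 0.113 when scaled by the median ratio. With the length trend removed it was 0.068, above the 0.026 of AQP4. By mean level GPR37 ranked 1354.

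GPR37L1, the closest relative of GPR37 and a gene of astrocytes, had 19.7, 15.0 and 16.0 FPKM in libraries 1, 2 and 3. GPR37 lay above GPR37L1 in every library, 2.25-fold, 3.11-fold and 2.94-fold on the scale of FPKM + 1, a log2 ratio of 1.45 ± 0.25 (SD, n = 3). PSAP, the precursor of a peptide proposed as a ligand of both receptors, averaged 272 FPKM ± 52.6 (SD, n = 3). PARK2, the ubiquitin ligase known to act on GPR37, averaged 1.87 FPKM ± 0.377 and the endothelin EDN1 1.68 FPKM ± 0.384 (SD, n = 3 for each). Of the 9 measured genes of this list 6 reached 1 FPKM and 3 reached 10 FPKM.

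The order of mean levels ran from CLU through GLUL, VIM, GFAP, APOE and GPR37 to AQP4, and its top depended on the library. CLU lay 2.16-fold and 1.14-fold above GLUL in libraries 2 and 3 but at 0.797 of it in library 1, on the scale of FPKM + 1, with a log2 ratio of 0.32 ± 0.73 (SD, n = 3). Without library 2 this ratio was -0.07 and the means were 456 FPKM for CLU and 472 FPKM for GLUL, so that GLUL came first. VIM, GFAP, APOE, GPR37 and AQP4 then averaged 289, 198, 116, 47.3 and 6.05 FPKM, in the same order as before. GLUL lay 1.70-fold and 1.57-fold above VIM in libraries 1 and 3 but at 0.910 of it in library 2, a log2 ratio of 0.43 ± 0.49 (SD, n = 3). Neither CLU and GLUL nor GLUL and VIM therefore differed beyond their spread.

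The rest of the order kept 1 sign in every library. GFAP lay above APOE by a log2 ratio of 0.67 ± 0.18, APOE above GPR37 by 1.43 ± 0.35 and GPR37 above AQP4 by 2.82 ± 0.12 (SD, n = 3 for each). GLUL stood 76.2-fold, 53.1-fold and 59.7-fold above AQP4 in libraries 1, 2 and 3 on the scale of FPKM + 1. Of the 11 pairs compared 9 had 1 sign in all 3 libraries and a mean beyond 2 SD. For each of these the exact two-sided sign-flip test over libraries gave p = 0.25, the smallest that 3 libraries allow, and 0.306 after Benjamini-Hochberg adjustment over the 11 pairs, so that no pair could pass 0.05.

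**Figure D2:**
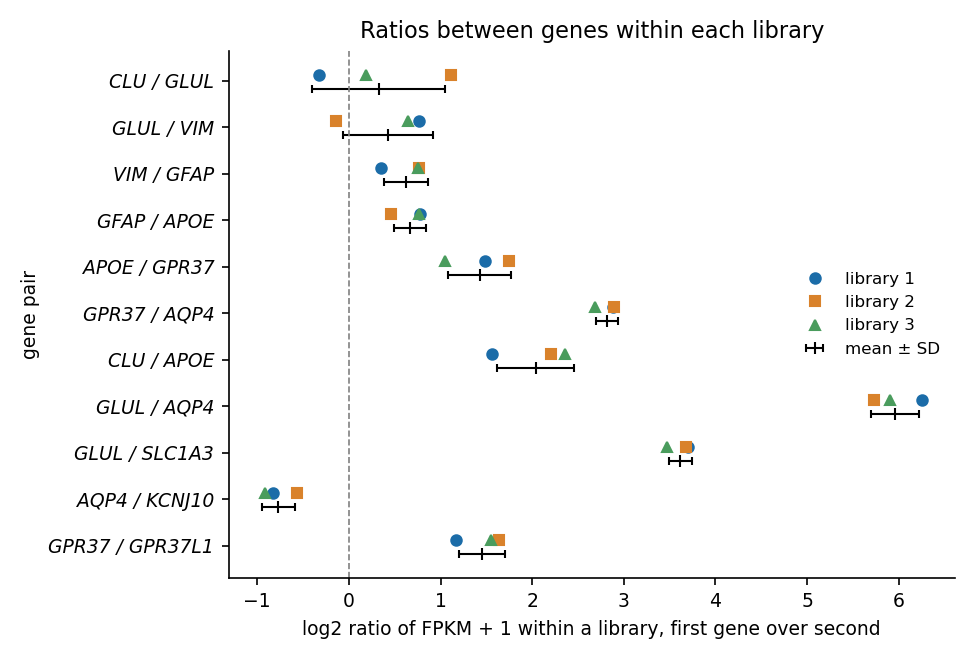
Log2 ratio of FPKM + 1 between the genes of 11 pairs within each library, first gene over second, with the mean ± SD (n = 3) under the 3 points. CLU over GLUL and GLUL over VIM cross 0, and the other 9 pairs lie on 1 side of it.

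The 7 genes did not move together between libraries. CLU, VIM, GFAP and APOE were highest in library 2, GLUL in library 1, and GPR37 and AQP4 in library 3. GLUL was the 1 gene that was lowest in library 2. CLU, VIM and APOE remained highest and GLUL lowest in library 2 with the libraries scaled to equal sums, scaled by the median ratio, or with the length trend removed. The highest library of GLUL, GFAP, GPR37 and AQP4 changed under at least 1 of these settings. Of the 9599 genes that averaged 1 FPKM or more, 29.0% were highest and 32.1% lowest in library 2.

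Counts of wide differences were 0 or 1 of the 7 genes for each pair of libraries, near the share of all genes. Between libraries 2 and 1 only CLU of the 7 genes differed by at least 1.5-fold on the scale of FPKM + 1, while 9.24% of the 9599 genes did. Between libraries 3 and 1 none of the 7 did, and 12.3% of all genes did. Between libraries 3 and 2 only APOE did, and 7.42% of all genes did. With the libraries scaled to equal sums, or with the length trend removed, APOE no longer passed there and CLU passed between libraries 3 and 1. Over any pair of libraries the count was 2 of 7, beside 19.9% of all genes. In 19 of 21 comparisons of a gene between libraries the difference exceeded counting error. At these read counts small differences do so, as GFAP did with a ratio of library 2 to library 1 of 1.03. The share of all genes that did so was not computed, so nothing particular to the 7 genes can be read from this count.

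**Figure D3:**
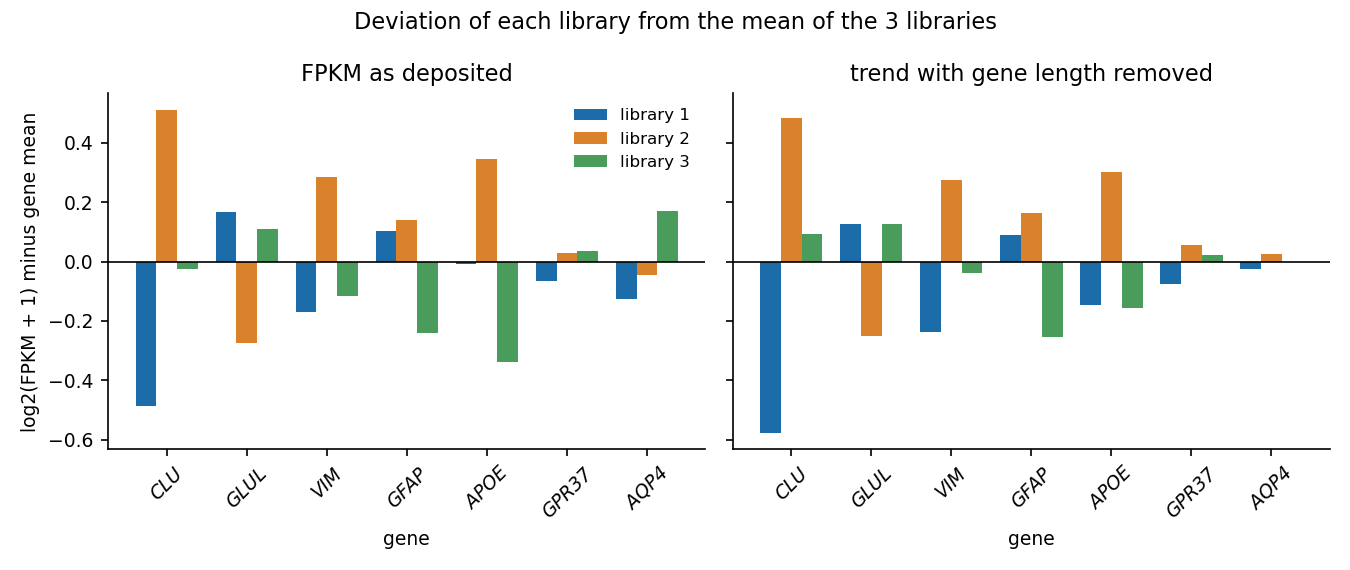
Deviation of each library from the gene mean on the scale of log2(FPKM + 1), as deposited (left) and with the trend of library values with gene length removed (right), for the 7 genes. In library 2 CLU stands at 0.51 and GLUL at -0.28 on the left, while AQP4 shrinks to within 0.03 of 0 on the right.

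By pattern over the 3 libraries, measured as the Euclidean distance of log2(FPKM + 1) centred on each gene's mean, other genes lay very near most of the 7. The search covered 5212 other genes that averaged 10 FPKM or more. For GLUL the nearest were CACNG5 and PRKACA, at distances of 0.00748 and 0.0126, and 87 genes lay within 0.1. For VIM the nearest were LY6E and SLC25A35, with 125 genes within 0.1, and for GFAP they were C1QBP and GABARAP, with 390. APOE had RESP18 and TIMP1 nearest and 30 genes within 0.1. GPR37 had C18H19orf12 and ABCB8 nearest and 427 genes, and AQP4 had PRNP and UBN1 nearest and 161 genes.

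For CLU no gene lay within 0.1. The nearest were ACTG1, at 0.117 with 443, 799 and 606 FPKM in libraries 1, 2 and 3, and AANAT at 0.122 with 97.4, 194 and 121 FPKM. With 3 libraries a pattern has few degrees of freedom, and these distances are a description. Among the 7 genes GPR37 and AQP4 were nearest to each other, at 0.167, and CLU and GLUL farthest apart, at 1.03.

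Other Müller glia markers were detected as well, with a lower median than the 7 genes. Of 29 listed Müller glia markers 26 were measured, all 26 reached 1 FPKM, 21 reached 10 FPKM and 10 reached 100 FPKM. The median was 41.6 FPKM, and 36.5 FPKM without those of the 7 genes that are on it. After CLU the highest was RGR, a retinal-binding opsin of Müller glia and pigment epithelium, with 560.4, 587 and 459.6 FPKM in libraries 1, 2 and 3. The summed level of the 20 markers outside the 7 genes was 2487, 2648 and 2113 FPKM. Of these 20 genes 10 were highest in library 2 and 5 lowest there, beside 29.0% and 32.1% of all genes that averaged 1 FPKM or more. Between libraries 2 and 1, 2 of the 20 were at least 1.5-fold apart, HES1 and DBI, beside the 9.24% of all genes. Between libraries 3 and 1 these were 3 of 20, HES1, PTGDS and DBI, beside 12.3%. Between libraries 3 and 2 they were 3 of 20, SLC1A3, CRYM and PTGDS, beside 7.42%. The genes in these counts were named after their values were seen.

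Astrocyte markers were uneven. Of 12 listed genes 10 were measured, 8 reached 1 FPKM and 4 reached 100 FPKM. ALDOC, an aldolase known from astrocytes, averaged 1039 FPKM ± 171, and S100B, a calcium-binding protein, 216 FPKM ± 27.4 (SD, n = 3 for each), beside GFAP at 208 FPKM ± 29.1. By mean level ALDOC ranked 15 and GFAP 183 of all genes. Which cells gave rise to the RNA of ALDOC and S100B was not tested. At the low end, chosen after their values were seen, ALDH1L1 averaged 1.83 FPKM ± 0.415 and the gap junction gene GJA1 0.562 FPKM ± 0.416 (SD, n = 3 for each). GJA1 had 118, 35 and 54 reads in libraries 1, 2 and 3. PAX2, a transcription factor of retinal astrocytes, was not analysed here.

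Several of the 7 genes are also expressed by cells other than macroglia, whose markers were measured too. The part of these cells in the levels of the 7 genes was not tested. Beside GPR37, the other 11 measured oligodendrocyte markers summed to 46.9, 42.8 and 43.2 FPKM in libraries 1, 2 and 3, with CNP at 27.5 FPKM ± 2.05 (SD, n = 3). Of these 11 genes 4 reached 1 FPKM. Defining genes, all chosen after their values were seen, were uneven. MAG and OLIG1 had 0, 1 and 0 and 4, 1 and 4 reads in libraries 1, 2 and 3. MBP had 144, 91 and 152 reads, MOG 73, 78 and 103, and SOX10 101, 51 and 82.

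Beside APOE, which microglia also express, all 13 other microglia markers were below 10 FPKM and summed to 21.1, 22.6 and 17.4 FPKM in libraries 1, 2 and 3. C1QB averaged 3.30 FPKM ± 0.631 and CD68 3.24 FPKM ± 0.331 (SD, n = 3 for each). The sum was highest in library 2 and lowest in library 3, as APOE was, but single markers differed in this. C1QB had that order, with 3.13, 3.99 and 2.77 FPKM in libraries 1, 2 and 3. CD68 did not, with 3.62, 3.04 and 3.05 FPKM. Beside VIM, the other 12 markers of endothelium and pericytes summed to 115, 117 and 111 FPKM. Of them 4 reached 10 FPKM, with CLDN5, a tight junction gene, at 41.0 FPKM ± 9.02 and KDR, a receptor for VEGF, at 15.4 FPKM ± 3.13 (SD, n = 3 for each).

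The pigment epithelium, which lies against the photoreceptors and also expresses CLU and APOE, gave markers that differed between libraries. Of 12 markers that averaged 1 FPKM or more, 5 were at least 1.5-fold apart between libraries 2 and 1. Of these 4 were lower in library 2, and SERPINF1 was higher. Between libraries 3 and 1 the count was 7, and between libraries 3 and 2 it was 4, all lower in library 3. The shares of all genes were 9.24%, 12.3% and 7.42%. Of all genes that far apart, 747 of 887 were lower in library 2 than in library 1. For library 3 these were 987 of 1179 against library 1 and 319 of 712 against library 2. RPE65, the isomerase of the visual cycle and a gene named here after its values were seen, had 6.39, 1.92 and 1.61 FPKM in libraries 1, 2 and 3. The list had a median of 3.38 FPKM, with RGR, RLBP1 at 408 FPKM and RDH5 at 21.5 FPKM in the lead, of which Müller glia express RGR and RLBP1 as well. RPE65 was highest in library 1, as were 45.3% of all genes that averaged 1 FPKM or more. CLU, VIM, GPR37 and AQP4 were lowest there, as were 24.5% of all such genes. Within libraries 1, 2 and 3 the median of the list was 5.04, 2.50 and 2.28 FPKM. The markers did not all share 1 order, and SERPINF1 had 10.8, 23.4 and 8.24 FPKM in libraries 1, 2 and 3. A link between them and the 7 genes was not tested.

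**Figure D4:**
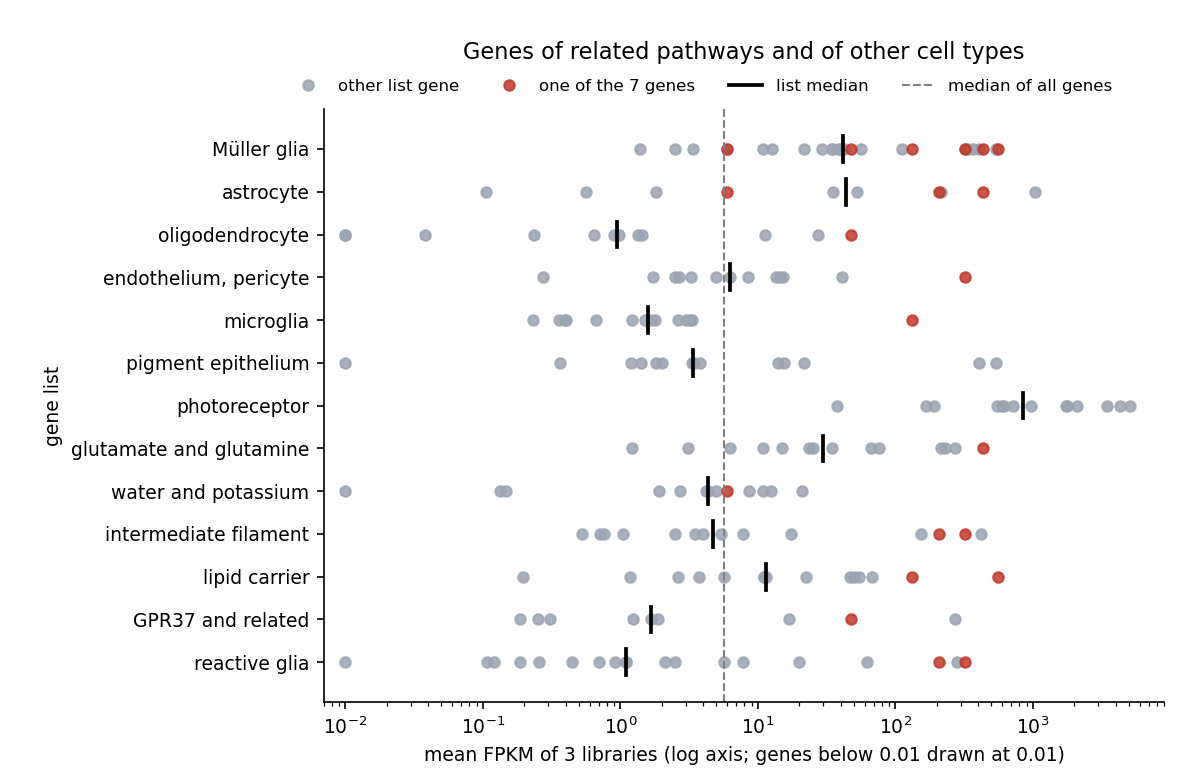
Mean FPKM of the 3 libraries for each measured gene of 13 lists, on a log axis, with the 7 macroglial genes in red, other genes in grey, a black bar at each list median and a dashed line at the median of all genes, 5.67 FPKM. GPR37, VIM and APOE stand above all other genes of the oligodendrocyte, vessel and microglia lists, and AQP4 lies close to the dashed line.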

How the data were processed

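The samples were 3 poly(A) RNA libraries of bovine retina. The labels' protocols give about 400 to 450 ng of poly(A) RNA and cDNA fragments of about 200 bp. CASAVA 1.8.1, GSNAP and HTSeq are named in the submitters' processing notes, while no source used here gives the genome build, annotation or strand setting. The table holds FPKM per gene and library, per the file headers, as the authors deposited them, with a gene length. Every column was tied to its library by replicate number.

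Reads were recovered from FPKM times length; for values up to 2000 reads, 100% were whole within 0.1 read. They served only for depth and for exact 95% intervals of ratios between libraries. Ratios were taken on log2(FPKM + 1), and a pair was said to differ beyond its spread with 1 sign in every library and a mean over 2 SD. Library differences were counted at 1.5-fold among genes that averaged 1 FPKM or more. The length trend was removed as the median deviation in 20 length bins. The steps were tested on simulated data. Python 3.11.15, numpy 2.4.6, pandas 2.3.3 and scipy 1.17.1 were used.

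The 7 genes and the 13 gene lists were chosen with earlier results of these data known. Of 187 listed genes 166 were measured. Named genes were the 7, the 5 highest measured members of each pathway list, the 3 highest of each cell type list, both sides of each pair and the 2 genes nearest in pattern; exceptions are stated where they occur, and 1 gene that falls under the rule is not reported here. Names were matched to RefSeq genes of ARS-UCD2.0, where all 7 were found; its coordinates are not printed, since the build behind the table is unknown. Alternatives were other pseudocounts, thresholds, minimum levels and scalings, and leaving out each library.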

Additional observations from a re-analysis of the deposited data

How the results depend on the processing

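Over 226 recomputed values 195 stayed within the spread between libraries or within 1.5 times the main count, 31 did not, and none reversed a pair that differed beyond its spread. No paired analysis was possible because the libraries form 1 group. The levels of the 7 genes stayed within 1 SD in every scaling and without any library. With 3 libraries, leaving out 1 cannot move a mean by 1 SD. Nor can it reverse a pair with 1 sign in every library, so those recomputations could not have come out otherwise. The log2 ratio of CLU over GLUL ranged from -0.07 to 0.65 when 1 library was left out. GPR37 over AQP4 was 3.00 with a pseudocount of 0.1, and GFAP ranked 171 by median FPKM. At a fold of 2 on the scale of FPKM + 1, which CLU just missed, none of the 7 genes differed (0 between libraries 2 and 1 and 0 between 3 and 2), beside 1.95%, 1.95% and 0.594% of all genes between libraries 2 and 1, 3 and 1, and 3 and 2. With equal sums, or with the length trend removed, CLU was the 1 gene that differed between libraries 3 and 1, and 0 differed between 3 and 2. Of all genes 6.52% then differed between libraries 3 and 1 with the trend removed, and 11.3% between 3 and 2 with a pseudocount of 0.1. Scaling to equal sums moved libraries 1, 2 and 3 by -0.03, -0.07 and 0.11 on the log2 scale. With list means used instead of medians, the lists stood at 150.7 FPKM (Müller glia), 199 (astrocyte), 7.67 (oligodendrocyte), 33.6 (endothelium), 10.9 (microglia), 72.3 (pigment epithelium), 1598 (photoreceptor), 101 (glutamate), 5.95 (water and potassium), 82.1 (filaments), 65.4 (lipid), 38.0 (GPR37 and related) and 48.3 (reactive glia). Without the 7 genes the medians of the Müller glia, astrocyte and glutamate lists were 36.5, 34.9 and 25.2 FPKM. Leaving out 1 library gave 42.3 to 45.1 FPKM for Müller glia. Where a value moved, the cause was not tested, except that leaving out the highest genes lowers a median by construction.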
